A study of Mus musculus with 6 samples.

Results

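The 10 genes described here, Acr, Acrbp, Acrv1, Spaca1, Spaca3, Spaca7, Zpbp, Zpbp2, Spink2 and Dkkl1, encode proteins of the acrosome matrix and its membranes, and were chosen by name from the 26743 genes of the deposited table. They were followed in whole testis from 3 wild-type (WT) and 3 Trf2-/- mice, all at postnatal day 21. Trf2, listed in the table as Tbpl1, is a TBP-related factor, and male mice without it do not make mature sperm. Total RNA was depleted of ribosomal RNA, sequenced, and counted per gene by the authors. The labels call the samples replicates and the design text speaks of separate males. Nothing in the labels says which part of Trf2 was deleted.

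The acrosome is a secretory vesicle that forms over the nucleus of the spermatid from Golgi-derived vesicles. Its matrix holds proteases in an inactive form together with proteins that package them or hold them back, and its contents and inner membrane are exposed when sperm meet the coat of the egg. At the age studied, the first wave of spermatogenesis has reached round spermatids, so that the tissue holds spermatocytes and young spermatids and few or no later cells. Messenger RNAs for acrosomal proteins are known to begin at different steps of this path, some in pachytene spermatocytes and others only after meiosis.

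Levels are given as CPM, counts scaled to library size with TMM factors. Reads on genes ran from 21582123 to 29859347 in WT mice and from 15187062 to 24530489 in Trf2-/- mice, the lowest being Trf2-/- mouse 3. A count of 0 allows up to 3 counts, which is 0.105 to 0.144 CPM in WT mice and 0.119 to 0.190 CPM in Trf2-/- mice. Such limits and intervals cover counting error only. Tbpl1 itself fell from 295 ± 12.5 to 61.0 ± 4.60 CPM (SD, n = 3 per genotype), at an adjusted p of 1.18e-06, and the genotypes did not overlap. Every adjusted p is from the quasi-likelihood test of edgeR, adjusted after Benjamini and Hochberg over 16924 tested genes, each log2 change is the fitted log2 fold change, Trf2-/- minus WT, with its standard error (SE), and a gene was called when the adjusted p was under 0.05 and the change at least 2-fold. Because these are bulk samples, fewer cells of a type and less RNA per cell cannot be told apart.

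The level of each of the 10 genes was lower in all 3 Trf2-/- mice than in any WT mouse, but the size of the difference was very uneven. Acrv1, Spaca3 and Spaca7 were close to 0 in Trf2-/- testis. Acr, Acrbp, Zpbp, Zpbp2, Spink2 and Dkkl1 kept between 48.8% and 68.4% of the WT level, and Spaca1 kept 85.4%. Acrv1, Spaca3 and Spaca7 were tested at all only because of the WT mice: no Trf2-/- mouse reached the level of 0.424 CPM that the filter on low counts asks of 3 mice. Of 164 genes that entered in that way 93.9% were called lower, so these 3 calls are read as largely set by the filter. Of the other 7 genes, 6 were lower past the adjusted p, all but Spaca1, against 19.5% of the 16760 tested genes that did not enter in that way. Zpbp2 was the 1 gene of the 7 called lower, against 3.42% of the same genes. Over all tested genes the shares were 20.2% past the adjusted p and 4.3% called lower, and none of the 10 genes was called higher. Ranges without overlap, Trf2-/- lower, were found for 26.8% of all tested genes. For Acrv1, Spaca3 and Spaca7 the lack of overlap was largely set by their entry through the WT mice alone. Only the other 7 genes can be set against that share, which itself includes the 164 genes that entered in that way. The median log2 change was -0.86 over the 10 genes, the same with genes of at most 3 counts per Trf2-/- mouse at their bound, and 0.04 over all tested genes. The 3 genes that entered through the WT mice are part of the former median.

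**Figure D1:**
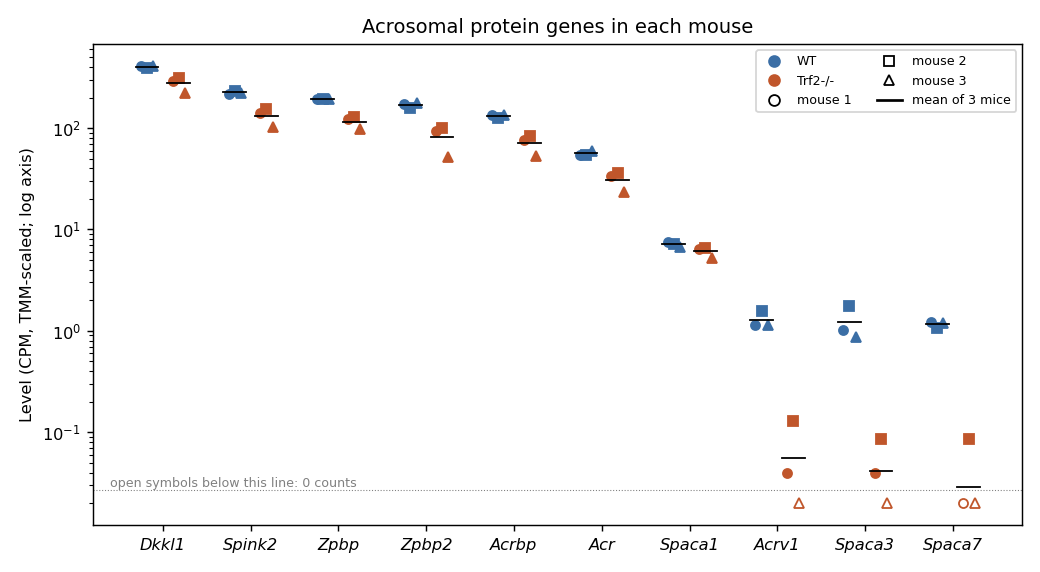
Level of each gene in each mouse, in CPM on a log axis, with WT in blue, Trf2-/- in orange and a bar at the mean of 3 mice; open symbols under the dotted line are mice with 0 counts. The 7 abundant genes lie between 5.25 and 411 CPM in both genotypes, while Acrv1, Spaca3 and Spaca7 lie near 1 CPM in WT mice and under 0.13 CPM in Trf2-/- mice.

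The regions before the start of transcription are shown for the 3 genes with almost no reads in Trf2-/- testis and for Spaca1, the gene that kept most, so that the ends of the range can be read side by side. The sequences are the 250 bases before the start, from RefSeq on GRCm38.p6, written 5′ to 3′ on the strand of the gene. Capitals mark TGACG, the core letters of the cAMP response element, or TATAAA, on either strand. The windows are Acrv1 at chr9:36692970-36693219 on the plus strand, Spaca3 at chr11:80858113-80858362 on the plus strand, Spaca7 at chr8:12572786-12573035 on the plus strand and Spaca1 at chr4:34050066-34050315 on the minus strand.
Acrv1: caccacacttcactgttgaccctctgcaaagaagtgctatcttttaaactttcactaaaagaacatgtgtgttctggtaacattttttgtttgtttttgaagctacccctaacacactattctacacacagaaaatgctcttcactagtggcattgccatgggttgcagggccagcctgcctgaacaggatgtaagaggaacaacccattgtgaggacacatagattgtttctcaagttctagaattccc
Spaca3: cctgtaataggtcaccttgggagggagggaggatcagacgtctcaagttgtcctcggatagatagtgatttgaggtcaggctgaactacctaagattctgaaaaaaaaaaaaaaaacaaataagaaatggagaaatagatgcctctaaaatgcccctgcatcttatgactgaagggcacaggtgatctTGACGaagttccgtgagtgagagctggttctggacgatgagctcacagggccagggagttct
Spaca7: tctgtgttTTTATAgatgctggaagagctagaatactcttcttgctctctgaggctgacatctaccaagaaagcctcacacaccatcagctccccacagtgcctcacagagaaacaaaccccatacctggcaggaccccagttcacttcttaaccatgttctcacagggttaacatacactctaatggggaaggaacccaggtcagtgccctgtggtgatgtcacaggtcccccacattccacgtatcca
Spaca1: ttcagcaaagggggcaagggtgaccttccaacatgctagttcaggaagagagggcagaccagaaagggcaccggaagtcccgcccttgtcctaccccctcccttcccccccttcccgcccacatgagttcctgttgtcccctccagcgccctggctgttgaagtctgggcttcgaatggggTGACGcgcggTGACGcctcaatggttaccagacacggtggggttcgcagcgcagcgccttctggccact

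Of the 10 genes, 9 had an entry in that table, with 13 starts. Acr had none. The full element TGACGTCA, which contains TGACG, was in no window of the 9 genes and in 1.55% of 32851 promoter windows of the same length. TGACG was found before 4 of the 9 genes, Acrbp, Spaca1, Spaca3 and Zpbp2, and in 17.8% of all windows. The latter is a share per window and not per gene, and some of the 9 genes have several windows. Spaca1 held it at 2 places, with first bases 69 and 59 before the start, and Spaca3 at 1 place, with its first base 62 before the start. Spaca3 was close to 0 in Trf2-/- testis and Spaca1 changed least. Whether the letters bear on the change was not tested. TATAAA was found only before Spaca7 among the 9 genes, on the minus strand, from 242 to 237 bases before the start, and in 12.4% of all windows.

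CpG dinucleotides were few before Acrv1 and Spaca7, and not clearly so before Spaca3, the third gene that was close to 0. The window of Acrv1 held 0, that of Spaca7 held 1 and each window of Spaca3 held 5, where the median of all windows was 6. Zpbp had 4. Counts were 8 to 11 in the windows of Spink2, 11 before Acrbp and Dkkl1, 13 in each window of Spaca1 and 19 before Zpbp2. The GC content was 42.0% before Acrv1, 45.6% before Spaca3 and 49.6% before Spaca7. It was 46.8% before Zpbp, below that of Spaca7, and from 51.2% to 62.8% in the windows of the other 5 genes, with a median of 52.4% over all windows. These are descriptions of 9 genes. The paralogs Zpbp and Zpbp2, which both fell, stood far apart in CpG content.

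Acr encodes proacrosin, the zymogen of the main serine protease of the matrix. It lies on the plus strand of chromosome 15 (NCBIM37, from 89398757 to 89405015) and its longest transcript has 5 exons. Its level was 54.5, 54.7 and 59.7 CPM in WT mice 1 to 3 and 33.5, 36.1 and 23.4 CPM in Trf2-/- mice 1 to 3. All Trf2-/- mice were below all WT mice, and mouse 3 was the lowest. The means were 56.3 ± 2.94 and 31.0 ± 6.74 CPM (SD, n = 3 per genotype), a log2 change of -0.85 (SE 0.13, adjusted p = 0.00191).

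Acrbp encodes the proacrosin binding protein, which keeps the zymogen packed in the matrix. It lies on chromosome 6 (from 124999707 to 125013285, plus strand) and shares 1811 bases with Ing4 on the same strand, so reads in that stretch cannot be assigned with certainty. The WT mice had 134, 125 and 134 CPM and the Trf2-/- mice 76.8, 83.1 and 52.9 CPM, again without overlap and with mouse 3 lowest. The log2 change was -0.88 (SE 0.14, adjusted p = 0.00177), short of 2-fold.

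The ratio of Acrbp to Acr inside a mouse needs no scaling between libraries. As log2 of the counts it was 1.30, 1.19 and 1.17 in WT mice and 1.19, 1.20 and 1.18 in Trf2-/- mice. The difference of -0.030 was within the spread of the WT mice (exact permutation test, two-sided, p = 0.9). Even in mouse 3, where both genes were lowest, the ratio lay between those of WT mice 2 and 3. With 3 against 3 the smallest p of this test is 0.1, and without WT mouse 1 the difference was 0.0092.

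Spink2 encodes a Kazal-type inhibitor of serine proteases in the acrosome. Its gene lies on the minus strand of chromosome 5, from 77634132 to 77640496. It had 219, 231 and 224 CPM in WT mice and 142, 153 and 103 CPM in Trf2-/- mice. The ranges were far apart, and Trf2-/- mouse 3 was again lowest. It fell from 224 ± 5.97 to 133 ± 26.0 CPM (SD, n = 3 per genotype), a log2 change of -0.76 (SE 0.12, adjusted p = 0.00196). The log2 ratio of Spink2 to Acr was 2.004, 2.08 and 1.91 in WT mice and 2.08, 2.08 and 2.14 in Trf2-/- mice. Inhibitor over protease was thus 0.10 higher in Trf2-/- mice, at the smallest p the exact permutation test allows (two-sided p = 0.1, 0.15 after adjustment over 3 ratios). It was 0.060 without WT mouse 3 and 0.144 without WT mouse 2.

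Zpbp and Zpbp2 are paralogs whose products bind the zona pellucida, the coat of the egg, and organise the matrix. Zpbp lies on the minus strand of chromosome 11, from 11179629 to 11362411, and Zpbp2 on the plus strand of the same chromosome, from 98412411 to 98419979. Short non-coding genes, pseudogenes and part of 4930415F15Rik overlap the long Zpbp locus, most of them on the opposite strand. Zpbp had 195, 191 and 191 CPM in WT mice, a spread of under 2 CPM (SD 1.93). In Trf2-/- mice it had 122, 128 and 96.8 CPM. Its log2 change was -0.73 (SE 0.09, adjusted p = 0.000741).

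Zpbp2 had 171, 158 and 175 CPM in WT mice and 94.2, 101 and 51.3 CPM in Trf2-/- mice. Mouse 3 stood well apart from the other two Trf2-/- mice, which resembled each other. With means of 168 ± 8.86 and 82.1 ± 26.8 CPM (SD, n = 3 per genotype), Zpbp2 was the single abundant gene of the 10 that reached 2-fold, at a log2 change of -1.03 (SE 0.20, adjusted p = 0.00498). Without Trf2-/- mouse 3 the change was -0.78 with adjusted p = 1.66e-05, so it stayed past the adjusted p and lost the call.

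The log2 ratio of Zpbp2 to Zpbp was -0.19, -0.27 and -0.13 in WT mice and -0.37, -0.35 and -0.91 in Trf2-/- mice. All Trf2-/- mice lay below all WT mice, and the distance was large only in mouse 3. The mean difference was -0.35 (exact permutation test, two-sided, p = 0.1, adjusted 0.15). Leaving out 1 mouse at a time moved it between -0.45 and -0.16, the smallest being without Trf2-/- mouse 3.

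Dkkl1 encodes a secreted Dickkopf-like protein found in the acrosome, and its transcript was the most abundant of the 10. The gene lies on the minus strand of chromosome 7, from 52462895 to 52467253. It had 411, 391 and 407 CPM in WT mice and 292, 315 and 220 CPM in Trf2-/- mice. There was no overlap, and mouse 3 was lowest. The level fell from 403 ± 10.3 to 276 ± 49.5 CPM (SD, n = 3 per genotype), a log2 change of -0.55 (SE 0.11, adjusted p = 0.00624).

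Spaca1 encodes a protein of the inner acrosomal membrane that is needed for the shape of the acrosome. It is on the minus strand of chromosome 4, from 34111849 to 34137166. It had 7.53, 7.20 and 6.67 CPM in WT mice, from 139 to 216 counts, and 6.47, 6.56 and 5.25 CPM in Trf2-/- mice, from 83 to 163 counts. The ranges were adjacent without overlap. The log2 change of -0.22 (SE 0.13) had a 95% interval from -0.51 to 0.07 and did not pass the test (adjusted p = 0.217). The lower end of that interval comes close to the change of Dkkl1.

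**Figure D2:**
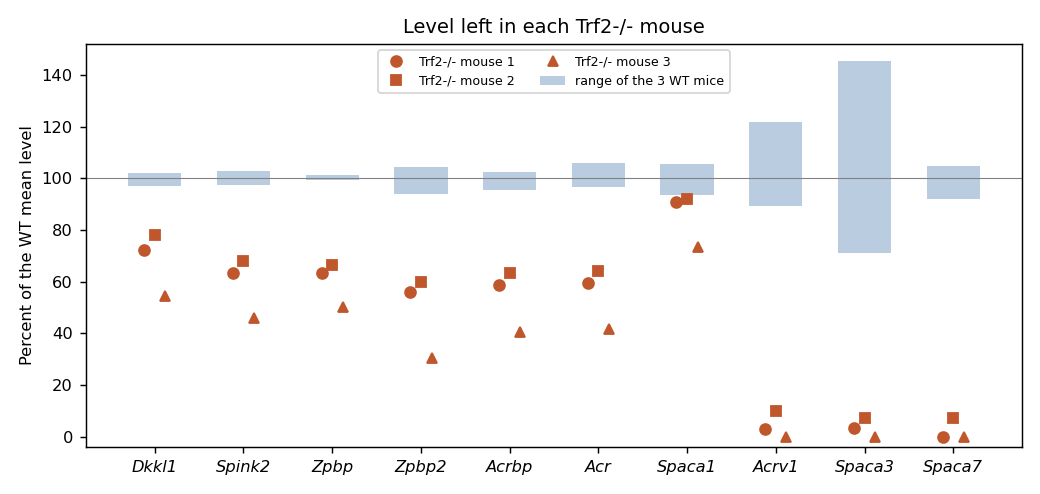
Level of each gene in each Trf2-/- mouse as percent of the WT mean, with the range of the 3 WT mice as a blue bar. Trf2-/- mice 1 and 2 sit together, mouse 3 lies below them in each of the 7 abundant genes, for example at 30.5% against 56.0% and 59.8% in Zpbp2, and Acrv1, Spaca3 and Spaca7 lie near 0.

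The remaining genes, Acrv1, Spaca3 and Spaca7, were weak in WT testis and rest on few reads. Acrv1 (chromosome 9, plus strand, from 36500805 to 36506422) encodes a vesicle protein of the acrosome. It had 33, 41 and 24 counts in WT mice and 1, 3 and 0 counts in Trf2-/- mice. Summed over mice, the ratio of WT to Trf2-/- was 20.8, with a 95% counting interval from 7.88 to 78.0. The fitted log2 change was -4.27 (SE 0.51, adjusted p = 0.000678).

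Spaca3 (chromosome 11, plus strand, from 80671867 to 80681316) encodes a lysozyme-like protein of the acrosomal membrane. It had 29, 46 and 18 counts in WT mice and 1, 2 and 0 counts in Trf2-/- mice. WT mouse 2 was the highest for both Spaca3 and Acrv1, at 1.76 and 1.57 CPM. The summed ratio was 26.4 (95% counting interval 8.75 to 130), and the adjusted p was 0.000971.

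Spaca7 (chromosome 8, plus strand, from 12573049 to 12600738) encodes a matrix protein that is released when the acrosome opens. It had 35, 28 and 25 counts in WT mice, the most even of the 3 weak genes, and 0, 2 and 0 counts in Trf2-/- mice. Its summed ratio was 37.4 (95% counting interval 10.1 to 314), and the adjusted p was 0.000605. The intervals of the 3 ratios overlap, so no order among the 3 genes can be read at this depth.

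The fitted changes of these 3 genes depend on how few reads are treated. They were -1.61, -1.51 and -1.62 for Acrv1, Spaca3 and Spaca7 with DESeq2's shrunken fold changes. When at least 10 counts in every mouse were required, the 3 genes were not tested and Zpbp2 was the 1 gene of the 10 called.

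**Figure D3:**
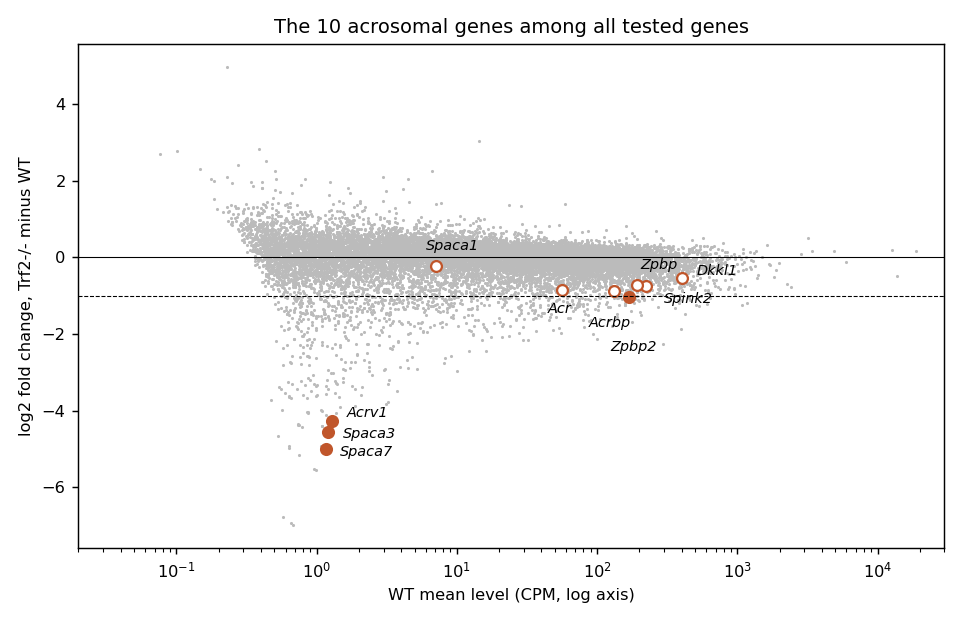
WT mean level (CPM, log axis) against the fitted log2 change of Trf2-/- minus WT for all tested genes in grey and the 10 genes in orange, filled where called, with a dashed line at the 2-fold limit. Acrv1, Spaca3 and Spaca7 lie together near 1 CPM and -4.27 to -5.00, while the other 7 genes lie between -1.03 and -0.22.

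To order the genes by level, CPM was divided by the deposited gene length. Per kilobase, the WT order was Dkkl1 (446 CPM per kb), Spink2 (285), Zpbp2 (99.96), Zpbp (45.3), Acrbp (40.0), Acr (37.5) and Spaca1 (4.47), followed by Spaca7 (1.53), Spaca3 (1.26) and Acrv1 (1.18). The ranges of the WT mice overlapped between Acrbp and Acr, between Spaca7 and Spaca3 and between Spaca3 and Acrv1, so these neighbours do not differ beyond their spread. In Trf2-/- testis the first 7 genes came in the same order, at 305, 168, 48.8, 27.2, 21.6, 20.6 and 3.82 CPM per kb. Zpbp and Acrbp then overlapped too.

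In the deposited table's own cellular-component terms, 6 of the 10 genes carried a term for the acrosome, all but Spaca1, Spaca7, Spink2 and Dkkl1. Such a term was carried by 68 other genes and 60 of them were tested. Of these 16 were called lower, 6 of them having entered through the WT mice alone. Without those 6, 10 of 54 were called lower (18.5%, against 3.42% of all genes that did not enter in that way). None of the 60 was called higher. Past the adjusted p, 7 were higher, where 1889 of all 16924 tested genes were, and 29 were lower. Without the 6 that entered through the WT mice alone, 23 of 54 were lower past it (19.5% of all such genes). The median log2 change over the 60, those 6 included, was -0.19.

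The genes whose levels followed the 10 most closely over the 6 mice, by Pearson r with their mean standardised log2 CPM, were Pdha2, Pik3ip1 and Gm12754. The values of r were 0.99985, 0.99978 and 0.99974 over 6 mice of 2 genotypes, so the values describe the split between genotypes and the low mouse 3 together. Their changes were unlike in size. Pdha2, the testis form of a pyruvate dehydrogenase subunit, had a log2 change of -0.20 (adjusted p = 0.0122). Pik3ip1 was at -0.69 (adjusted p = 0.00149) and the weak predicted gene Gm12754 at -1.60 (adjusted p = 0.00777).

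Further genes of acrosome function were read in 4 lists. The first holds genes of egg binding and fusion, of which 12 of 16 were tested, 6 were called lower, 9 were lower past the adjusted p and none was higher. Of the 6 called, 4 entered the test through the WT mice alone. Of the other 8 genes 2 were called lower (3.42% over all such genes) and 5 were lower past the adjusted p (19.5%). The median over the 12, with those 4 genes included, was a log2 change of -1.16. The most abundant, Crisp2, which encodes a cysteine-rich secretory protein of the acrosome and tail, fell from 941 ± 24.1 to 530 ± 108 CPM (SD, n = 3 per genotype), a log2 change of -0.83 (adjusted p = 0.00167). Spesp1, of the equatorial segment, was at -0.76 (adjusted p = 0.000466) and Pcsk4, a proprotein convertase, at -0.33 (adjusted p = 0.00955).

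The 6 called genes of that list were Pkdrej, Izumo1, Spam1, Zp3r, Tmem190 and Lyzl6. Pkdrej, a polycystin-related membrane protein, was the only abundant one. It had 82.2, 85.0 and 89.4 CPM in WT mice and 34.2, 38.3 and 16.9 CPM in Trf2-/- mice, with the low mouse 3 seen in the 10 genes (log2 change -1.50, adjusted p = 0.00153). Izumo1, the sperm protein needed for fusion with the egg, had 1.15 ± 0.141 CPM in WT and 0.370 ± 0.241 CPM in Trf2-/- testis (SD, n = 3 per genotype), a log2 change of -1.57 (adjusted p = 0.0132).

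Spam1, a hyaluronidase, and Zp3r, a matrix protein that binds the zona, kept 7.06% and 5.71% of levels near 1 CPM. Tmem190 and Lyzl6 had 0 counts in each Trf2-/- mouse and were lower by a factor of at least 3.46 and at least 3.05, against 3 counts per library. The adjusted p of these 4 genes ran from 0.000634 to 0.00126, and all of them passed the filter through the WT mice alone, like the weak genes of the 10. The tested genes of the list that did not pass the adjusted p were Eqtn, Cd46 and Spaca6, at 1.12, 1.73 and 6.35 CPM in WT testis (adjusted p = 0.204, 0.582 and 0.378). Eqtn was at 65.3% of its WT level without overlap between genotypes, and the other genes overlapped.

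Acrosome biogenesis genes, which act in Golgi traffic and vesicle fusion, were tested for 12 of 12. None was called, 7 were lower past the adjusted p (20.2% of all tested genes were) and 1, Atg7, was higher (log2 change 0.20, adjusted p = 0.0285), and the median was -0.23. The 3 most abundant were Tmf1 and Golga3, both Golgi proteins, at -0.34 and -0.37 (adjusted p = 0.00159 and 0.000668), and Spata16 at -0.95 (adjusted p = 0.00174). Spata16, a spermatogenesis gene whose product localises to the Golgi and acrosome, thus came close to Acrbp, while the general Golgi genes changed less.

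The third list holds the acroplaxome and perinuclear theca, the cytoskeleton between acrosome and nucleus. Only 5 of 10 genes were tested, and 3 were called lower. Of these, Actl7a and Capza3 entered the test through the WT mice alone, which leaves 1 of 3 to set against 3.42%. The actin-like genes Actl7a and Actl7b were at -3.27 (adjusted p = 0.00118) and -1.04 (adjusted p = 0.00210), and Capza3, a testis capping protein, at -3.68 (adjusted p = 0.00366). Actl7b fell from 70.6 ± 3.21 to 33.9 ± 9.60 CPM (SD, n = 3 per genotype), near Zpbp2 in its change. Capzb, a capping protein subunit of most cells, had 84.4 ± 2.53 and 86.6 ± 3.03 CPM (SD, n = 3 per genotype, adjusted p = 0.594). Actl9, at -0.87 (adjusted p = 0.0935), has overlapping copies in the table and is uncertain.

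Genes of acrosomal exocytosis, the membrane fusion machinery, were tested for 10 of 12. None was called. The median log2 change was -0.07, within a range from -0.54 to 0.26. Plcd4, Stx2 and Rab27a were lower past the adjusted p, 3 of 10 where 20.2% of all tested genes were, and Nsf, the general fusion ATPase, was higher at 0.26 (adjusted p = 0.00702). Napa, the most abundant, was at -0.13 (adjusted p = 0.0552), followed by Plcd4 at -0.54 (adjusted p = 0.0189) and Stx2 at -0.29 (adjusted p = 0.00706).

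**Figure D4:**
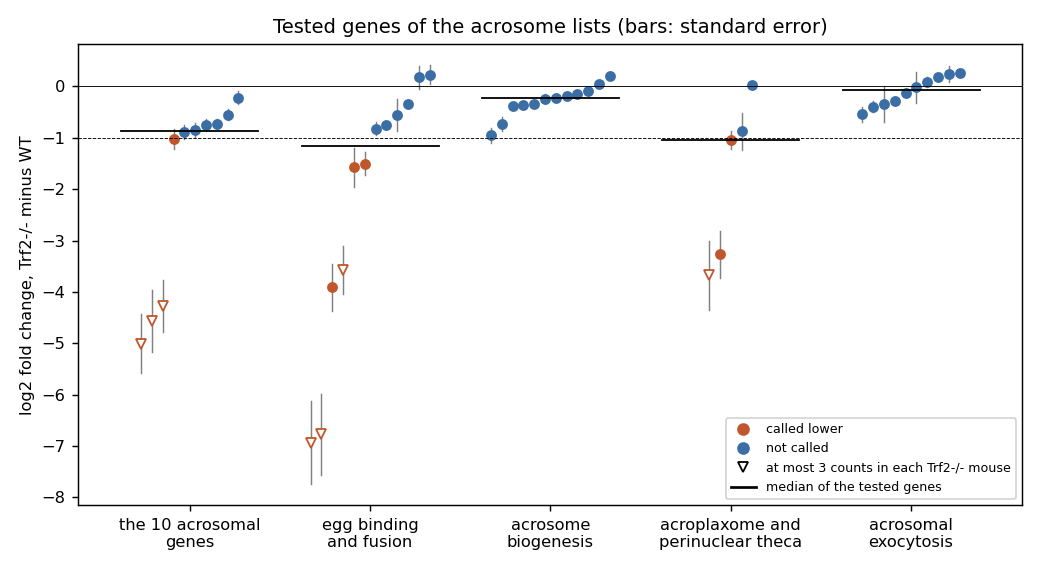
Fitted log2 change, Trf2-/- minus WT, of each tested gene of the 10 and of the 4 lists, with bars for the standard error, orange where called lower, open triangles where each Trf2-/- mouse had at most 3 counts, and a black line at the list's median. The medians were -0.86, -1.16, -0.23, -1.04 and -0.07 from left to right. Genes that entered the test through the WT mice alone are part of them: 3 of the 10 genes, 4 of egg binding and 2 of the acroplaxome list. Those medians are therefore partly set by the filter.

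Marker lists of the testis cell types moved with the genotype as well. The summed level of 10 round spermatid markers was 399 to 407 CPM in WT mice and 180 to 273 CPM in Trf2-/- mice, 95.5% of it from Spag6. Of its 8 tested genes 5 were called lower, where 4.3% of all tested genes were. But Catsper3, Catsper4, Tssk2 and Hils1 entered through the WT mice alone. This leaves Tssk1 as 1 of 4, against 3.42% of all genes that did not enter in that way. Tsga8, at 112% of its WT level, and Tssk6, at 74.4%, did not pass the test. None of the 10 markers was at 0 in all mice of a genotype. The summed level of 7 elongating spermatid markers was 6.72 to 8.43 CPM in WT and 0.948 to 1.63 CPM in Trf2-/- mice. All 4 tested genes of that list were called lower, but Akap4 and Gapdhs entered through the WT mice alone. This leaves Odf1 and Oaz3, 2 of 2, to set against 3.42%. Prm2 and Prm3, which encode protamines of condensing sperm chromatin, were at 0 in each Trf2-/- mouse. They had only 0, 1 and 1 and 2, 1 and 0 counts in WT mice, at no more than 0.0697 CPM. Their ranges overlapped between genotypes, as did those of Tnp1, so no lower level can be read for these 3 genes.

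The sum over the 10 acrosomal genes, 1163 to 1202 CPM in WT mice, was left at 64.7%, 69.3% and 46.6% of the WT mean in Trf2-/- mice 1 to 3. The round spermatid sum, 95.5% of it from Spag6, stood at 62.1%, 67.6% and 44.6% in the same mice. Pachytene markers were left at 80.1%, 83.4% and 70.3%, so mouse 3 was lowest there too, and the genes of the list differed widely. Ccna1, Pgk2 and Ldhc were left at 31.5%, 38.2% and 61.7% of their WT mean, while Sycp3 was at 118%. Of the 7, 2 were called lower (4.3% of all tested genes) and 6 were lower past the adjusted p (20.2%). Markers of spermatogonia were at 102%, 108% and 131% and those of Sertoli cells at 111%, 113% and 124%, highest in mouse 3. No gene of either list was called. Past the adjusted p, 1 of 6 spermatogonia genes and 3 of 7 Sertoli genes were higher, where 1889 of all 16924 tested genes were. The part of these cell types in the values of the 10 genes was not tested.

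Macrophage markers, at 210%, 127% and 106%, were highest in Trf2-/- mouse 1, which did not stand apart in the 10 genes, and their sums overlapped between genotypes, with 144 to 168 CPM in WT and 162 to 323 CPM in Trf2-/- mice. Lyz2 was the 1 gene of 6 called higher (log2 change 1.36, adjusted p = 0.0203), where 103 of all 16924 tested genes were. It had 104, 37.3 and 37.9 CPM in Trf2-/- mice 1 to 3, so its mean rests largely on mouse 1. Past the adjusted p, 3 of the 6 were higher, where 1889 of all 16924 tested genes were. Leydig cell sums overlapped too, with 181 to 360 CPM in WT and 185 to 326 CPM in Trf2-/- mice, and so did peritubular sums, with 269 to 345 CPM in WT and 338 to 389 CPM in Trf2-/- mice.

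**Figure D5:**
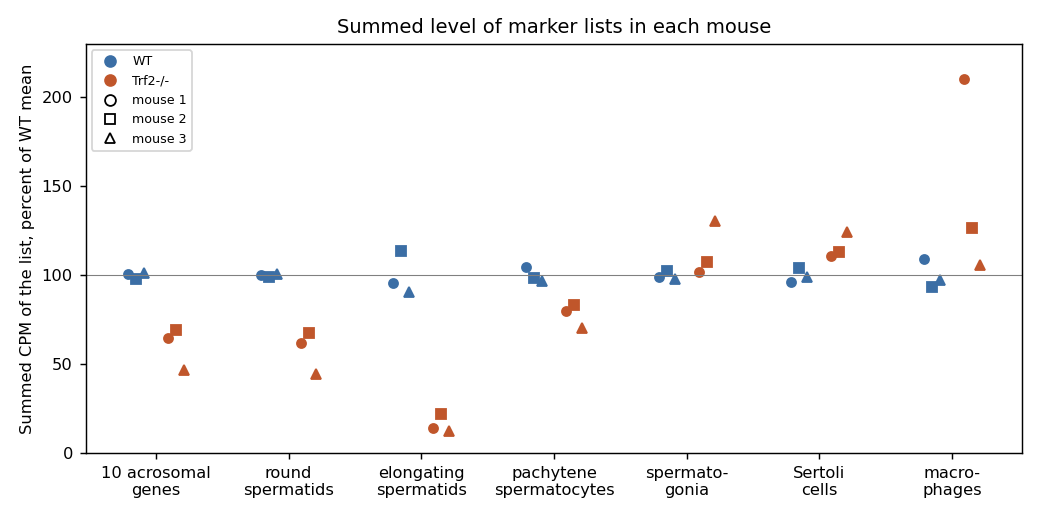
Summed CPM of the 10 acrosomal genes and of marker lists in each mouse, as percent of the WT mean, WT in blue and Trf2-/- in orange. The acrosomal and round spermatid sums have like values in each Trf2-/- mouse, such as 46.6% and 44.6% in mouse 3, whereas the pachytene sum is left at 70.3% or more. Spag6 makes up 95.5% of the round spermatid sum, which thus stands for that gene more than for the list.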

How the data were processed

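Testis RNA of 3 WT and 3 Trf2-/- mice was sequenced as single-end reads from a strand-marking kit. The deposited counts are raw reads per gene for 26743 genes. The authors aligned to mm9 (NCBIM37), and the submitters' processing notes name TopHat2 2.0.10, Bowtie2 2.1.0, HTSeq 0.5.4p3 and DESeq2 1.0.19. The strand setting is not given in the sources used here, so genes that overlap can share reads. Their 12 normalized columns, and their fold changes and p-values, were not used.

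Counts were tested with edgeR 4.0.16 in R 4.3.3 (TMM, filterByExpr, glmQLFit, glmQLFTest), which left 16924 genes holding 99.9% of the reads. The standard error is the log2 fold change over the root of F. Scripts were tested on simulated data. In same-genotype pairs chi-square per degree of freedom was 2.76 or more, so no library was a repeat. Ratios used a pseudocount of 0.5. The genes and lists were chosen with earlier results of these data known, and Tmem95 and Syt8 were not matched by name. Named are the 10 genes, Tbpl1, in each list the called genes and up to 3 uncalled with the highest WT level, and the 3 genes most like the 10. Other genes named with values (Lyz2, single marker genes, Eqtn, Cd46, Spaca6, Atg7, Nsf, Rab27a, Capzb, Actl9, Prm2, Prm3 and the untested genes) were named after their values were seen. Alternatives were other size factors, filters and thresholds, DESeq2 1.42.0, a replicate block and leaving out each mouse.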

Additional observations from a re-analysis of the deposited data

How the results depend on the processing

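Over the alternatives run, no change of any of the 10 genes reversed. 9 of them passed the adjusted p in every alternative in which they were tested, and Spaca1 in none (adjusted p 0.192 to 0.468). The 9 include Acrv1, Spaca3 and Spaca7, whose passing is read as largely set by their entry through the WT mice alone. These genes were not tested where at least 10 counts in every mouse were required. Zpbp2 was under 2-fold with library size alone (-0.93), with DESeq2's shrunken fold changes (-0.79), without WT mouse 3 (-0.998) and without Trf2-/- mouse 3 (-0.78). Shrunken fold changes put Acrv1, Spaca3 and Spaca7 at -1.61, -1.51 and -1.62. Over the alternatives these 3 ran from -5.46 to -1.61, from -5.38 to -1.51 and from -7.77 to -1.62. Acrbp passed 2-fold without Trf2-/- mouse 2 (-1.02). Library size alone put the median of all genes at 0.13.

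At least 10 counts in every mouse left 1 of the 10 genes called lower, 1 gene of egg binding and fusion, 1 of the acroplaxome list, and 436 lower and 61 higher over all genes. That setting tested 15525 genes and left out those with fewer than 10 counts in any mouse, among them the genes near 0 in Trf2-/- mice. No filter gave 6 acroplaxome genes and 159 higher genes, and library size alone gave 158 higher. Shrunken fold changes gave 392 lower, 11 higher and 1 acroplaxome gene. Without a fold limit there were 3423 lower and 1889 higher genes, with 9 of the 10 genes, 7 of biogenesis and 3 of exocytosis, and an adjusted p of 0.01 gave 32 higher. The main counts over all genes were 727 lower and 103 higher. Apart from the filters and thresholds the cause was not tested.

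Leaving out 1 mouse at a time gave 616 to 896 lower and 53 to 177 higher genes, 3 to 5 of the 10 genes, 5 to 8 of egg binding, 2 to 3 of the acroplaxome and 0 to 1 of biogenesis. The log2 ratio of Acrbp to Acr ran from -0.055 to 0.0092, its sign turning without WT mouse 1 (0.0092), and that of Spink2 to Acr from 0.060 to 0.144.

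Same-numbered mice had correlations of -0.13, -0.01 and -0.12 in their deviations from the genotype mean. No pairing by number was visible in these values, but they cannot exclude one. With the replicate number as a block, 725 genes were lower and 76 higher, with 4 of the 10 genes called and 9 past the adjusted p, and 6, 0, 3 and 0 genes of the lists of egg binding, biogenesis, acroplaxome and exocytosis. No mouse correlated best with its own number. Depth limits the 3 weak genes, whose Trf2-/- counts were 0 to 3 per mouse.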

Other observations

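In the 4 acrosome lists, 9 matched genes had too few reads to be tested, and their counts are only described here. Hyal5, a hyaluronidase of the acrosome, had 15, 13 and 7 counts in WT mice, whereas every Trf2-/- mouse had 0, lower by a factor of at least 2.38. Spaca4, a membrane protein of sperm that takes part in binding to the zona, had 15, 17 and 9 counts in WT mice and 1 in each Trf2-/- mouse. Lyzl4, a lysozyme-like gene, had 15, 9 and 6 counts in WT mice and 1, 2 and 0 in Trf2-/- mice. Cylc1, of the perinuclear theca, had 9, 8 and 6 counts in WT mice and 1, 3 and 0 in Trf2-/- mice. Each of these Trf2-/- counts was at most 3, so no size of the difference is read. Of the 9 untested genes of these lists, 7 had ranges without overlap, Trf2-/- lower, also Actrt1, Actrt2 and Cylc2. The share was 26.8% over all tested genes, which leave out genes with so few counts, so it is no background here. Without a background the count is not read as a result about these genes. WT means of Actrt1 and Actrt2 were 0.179 and 0.119 CPM. Both lay under the 0.190 CPM that 3 counts make in Trf2-/- mouse 3, so no lower level can be read for them. Syt6 and Ccin overlapped. Ccin, also of the theca, overlapped, with 0.139 to 0.240 CPM in WT mice and 0 to 0.159 CPM in Trf2-/- mice.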
